A study of Mus musculus with 20 samples.

Results

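The 9 genes described here are the tumour suppressor gene Trp53, 5 genes that p53 is known to transcribe (Mdm2, Cdkn1a, Ccng1, Bax and Bbc3), the neighbouring inhibitor genes Cdkn2a and Cdkn2b, and the proto-oncogene Myc. They were found by symbol among the 52783 Ensembl gene identifiers of the deposited count table, and each of the 9 matched a single identifier. RNA was sequenced from cells of 10 mouse mammary tumours, 5 grown from the metastatic line 66cl4 and 5 from the non-metastatic line 67NR, both sister lines of the 4T1 breast cancer model. The lines were injected into the mammary fat pad of adult female BALB/cJ mice with an intact immune system, and no group received any other treatment. Each tumour was dissociated and live cells were sorted by the leukocyte antigen CD45, so that every animal gave a CD45+ and a CD45- library, 20 in all and 5 per group. Each line is a single cell line, so differences between tumours are differences between the progeny of 2 lines and the hosts that carried them.

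The CD45- gate held every CD45- cell of the tumour, not the injected cells alone. Ptprc, which encodes CD45, separated the gates in 10 of 10 animals, its CD45+ level being 33.6- to 1932-fold the CD45- level. The recorded cell type contradicts the title for 66cl4 animals 5 and 6. Their groups were taken from the titles, and Ptprc was high in the libraries titled CD45+. One title, that of the CD45- library of animal 5, names another antigen, while its count column reads negCD45. Results of the 9 genes that change without animals 5 and 6 are given both ways. In CD45- libraries the 9 fibroblast markers of 66cl4 had a summed level of 9504 to 15290 normalised counts and those of 67NR of 14557 to 22626. The 8 epithelial markers summed to 6112 to 6870 and to 145 to 537. The epithelial sum of 66cl4 came mainly from Krt8 and Krt18, while Epcam averaged 12.1 ± 8.98 normalised counts in 66cl4 and 32.8 ± 19.8 in 67NR (SD, n = 5 each). Krt8 averaged 5353 ± 273 in 66cl4 and 61.6 ± 30.1 in 67NR, and Krt18 1149 ± 125 and 58.6 ± 41.0. Cldn7 and Krt5 averaged under 5 in the CD45- libraries of both tumours, so the epithelial list held both high and low markers in 66cl4. Total counts ran from 12960000 to 28080314 per library.

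p53 is a transcription factor that is stabilised by DNA damage and other stress. Its targets stop the cell cycle or start apoptosis, and one of them, Mdm2, encodes the ubiquitin ligase that degrades p53; the protein is mainly controlled after translation. Cdkn2a encodes 2 unrelated proteins from separate first exons: p16Ink4a, which inhibits Cdk4 and Cdk6, and p19Arf, which inhibits Mdm2. Cdkn2b encodes p15Ink4b, another inhibitor of Cdk4 and Cdk6, and Myc drives growth and ribosome production. Deposited counts are per gene, so the Ink4a and Arf transcripts of Cdkn2a are pooled.

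The starts of 5 of these genes are shown because p53 and Myc act through short DNA elements, which can be looked for there. RefSeq windows of 300 bases, 250 before and 50 after an annotated start, were held for 8 of the 9 genes (12 windows, build GRCm38.p6), Myc being the exception. Capitals mark matches to the p53 half-site or to CACGTG, the E-box that Myc binds, searched on both strands. The first 4 windows belong to p53 target genes and the last 2 are the Arf-side and Ink4a-side starts of Cdkn2a, which hold no match.
Cdkn1a, plus strand, chr17:29090729-29091028: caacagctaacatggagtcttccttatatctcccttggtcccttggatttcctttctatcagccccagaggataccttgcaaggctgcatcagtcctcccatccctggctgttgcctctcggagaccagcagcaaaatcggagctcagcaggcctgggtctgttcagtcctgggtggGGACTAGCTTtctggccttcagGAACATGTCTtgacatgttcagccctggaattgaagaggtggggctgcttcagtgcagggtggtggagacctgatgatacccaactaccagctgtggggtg
Mdm2, minus strand, chr10:117710709-117711008: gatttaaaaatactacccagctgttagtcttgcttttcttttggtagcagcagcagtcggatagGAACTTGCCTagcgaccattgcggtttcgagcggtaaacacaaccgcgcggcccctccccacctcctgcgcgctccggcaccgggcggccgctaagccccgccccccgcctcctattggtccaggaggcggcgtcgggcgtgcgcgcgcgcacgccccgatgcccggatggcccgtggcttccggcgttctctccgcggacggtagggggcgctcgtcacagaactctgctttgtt
Ccng1, minus strand, chr11:40755237-40755536: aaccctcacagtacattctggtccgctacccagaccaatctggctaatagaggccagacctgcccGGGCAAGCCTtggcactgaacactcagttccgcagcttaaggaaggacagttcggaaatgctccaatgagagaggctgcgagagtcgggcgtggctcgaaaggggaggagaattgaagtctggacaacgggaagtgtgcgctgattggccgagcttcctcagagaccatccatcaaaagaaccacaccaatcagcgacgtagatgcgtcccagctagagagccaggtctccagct
Bax, minus strand, chr7:45466849-45467148: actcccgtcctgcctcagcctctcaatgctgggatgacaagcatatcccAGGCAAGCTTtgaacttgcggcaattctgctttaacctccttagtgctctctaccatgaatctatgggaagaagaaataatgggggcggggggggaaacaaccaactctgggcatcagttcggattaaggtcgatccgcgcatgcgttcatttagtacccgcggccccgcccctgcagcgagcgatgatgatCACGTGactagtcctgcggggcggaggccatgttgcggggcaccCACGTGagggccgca
Cdkn2a Arf side, minus strand, chr4:89294570-89294869: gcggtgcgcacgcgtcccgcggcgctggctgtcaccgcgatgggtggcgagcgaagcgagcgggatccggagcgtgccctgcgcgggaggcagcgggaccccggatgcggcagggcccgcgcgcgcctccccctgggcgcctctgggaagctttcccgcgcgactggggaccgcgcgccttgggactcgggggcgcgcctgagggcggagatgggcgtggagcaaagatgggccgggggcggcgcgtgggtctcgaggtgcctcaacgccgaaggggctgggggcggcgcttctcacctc
Cdkn2a Ink4a side, minus strand, chr4:89282143-89282442: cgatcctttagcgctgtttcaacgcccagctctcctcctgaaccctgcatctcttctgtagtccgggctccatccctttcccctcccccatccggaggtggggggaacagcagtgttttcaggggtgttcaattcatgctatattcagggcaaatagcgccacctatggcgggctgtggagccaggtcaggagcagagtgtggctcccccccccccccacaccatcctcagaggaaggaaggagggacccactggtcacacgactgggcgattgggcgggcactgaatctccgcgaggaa
A half-site was present in 8.36% and CACGTG in 7.15% of all 32817 windows of this length, so a single match can occur by its letters alone. Binding was not tested. Cdkn1a held 2 half-sites in its first window, and Trp53, Mdm2, Ccng1 and Bax held 1 each. The Arf-side window of Cdkn2a was 77% G and C with 45 CpG pairs, against 60.3% and 12 in the Ink4a-side window. CACGTG was found in 2 places in the Bax window, one before and one after the start, in 1 place after the start of Trp53, and in 1 place before the start in 1 of the 3 Bbc3 windows. The Cdkn2b window, the second Cdkn1a window, both Cdkn2a windows and the other Bbc3 windows held neither motif. Bbc3, the p53 target whose windows are not shown, held no half-site in any of its 3 windows.

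Cdkn2a gave the largest difference among the 9 genes. In 67NR CD45- cells its normalised counts in animals 1, 4, 5, 6 and 7 were 271, 216, 286, 238 and 314. In 66cl4 CD45- cells, animals 3 to 7 gave 5.31, 2.49, 5.83, 3.19 and 3.99, which are 3 to 7 reads per library against 288 to 326. The groups did not come near each other, and all 5 libraries of 66cl4 lay close to 3 counts, the limit that a count of 0 allows. The means were 4.16 ± 1.40 and 265 ± 38.7 (SD, n = 5), and the fitted difference was a log2 fold change of -5.97 (SE 0.219, adjusted p = 3.44e-11, edgeR quasi-likelihood test with Benjamini-Hochberg adjustment over 14844 genes). Summed over libraries, 22 reads stood against 1535, a size-adjusted ratio of 65.4 (95% interval 43.0 to 105, counting error only).

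In the CD45+ cells the difference had the same sign and was smaller. Cdkn2a gave 90.5, 80.2, 55.9, 38.3 and 35.0 normalised counts in 67NR and 11.1, 16.2, 17.4, 11.6 and 15.2 in 66cl4. The groups again did not overlap, and 66cl4 was lower by 2.04 on the log2 scale (log2 fold change -2.04, SE 0.338, adjusted p = 0.00153, edgeR). Within tumours the order of the gates reversed: in 66cl4 the CD45+ cells held more Cdkn2a (log2 fold change 1.77, SE 0.316, adjusted p = 0.000244), and in 67NR less (-2.15, SE 0.271, adjusted p = 3.08e-05). The order of the 4 groups was 67NR CD45-, 67NR CD45+, 66cl4 CD45+ and 66cl4 CD45-, and each neighbouring pair had ranges that did not overlap (exact permutation p = 0.00794 each, two-sided, the smallest that 5 against 5 libraries allow). For the steps between gates of one tumour, this test took libraries of the same animals as unpaired. In 67NR the CD45+ level of Cdkn2a was 22.6% of the CD45- level, beside 11.8% for the summed fibroblast and 109% for the summed epithelial markers. That epithelial sum held Cdh1, which was higher in CD45+ cells (227 ± 18.2 against 32.9 ± 18.6), while Krt8, Krt18 and Krt19 were called lower. The median over the 5 epithelial markers averaging at least 20 in 67NR CD45- cells was 16.9%. In 66cl4 the CD45+ level of Cdkn2a was 344%, beside 6.12% for summed fibroblast and 11.8% for summed epithelial markers. The part of carried-over CD45- cells in the CD45+ values was not tested.

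Like Cdkn2a, Cdkn2b, which lies beside it on the same chromosome, had its lowest mean in 66cl4 CD45- cells. Unlike Cdkn2a, it was higher in 66cl4 among CD45+ cells, and higher in CD45+ than in CD45- cells of 67NR. It was nearly absent from CD45- cells: the libraries held 0 to 3 reads in 66cl4 and 0 to 8 in 67NR, so a difference between tumours was not detectable at this depth (1.49 ± 1.25 against 3.21 ± 2.35 normalised counts, exact permutation p = 0.175, and 0.0476 when 67NR CD45- animal 7 was omitted), and the low count filter removed it there. In CD45+ cells it gave 36.2, 38.2, 45.3, 40.0 and 33.0 normalised counts in 66cl4 and 6.24, 16.5, 16.3, 24.0 and 17.5 in 67NR. All 5 libraries of 66cl4 stood above all 5 of 67NR (log2 fold change 1.26, SE 0.297, adjusted p = 0.0108, edgeR), although the call was lost when animals 5 and 6 were omitted (adjusted p = 0.0676). In 66cl4 the CD45+ cells held 190 reads in all against 8 in CD45- cells, a ratio of 26.5 (95% interval 13.2 to 62.2, counting error only; log2 fold change 4.58, SE 0.410, adjusted p = 5.61e-07). In 67NR 72 reads stood against 20 (ratio 4.87, interval 2.93 to 8.44), and the CD45+ library was the higher one in 5 of 5 animals. The exact permutation p between these 2 groups was 0.00794, with the libraries taken as unpaired. No sequence stretch of 31 bases is shared between the transcripts of Cdkn2a and Cdkn2b, and counts of both were whole numbers in all 20 libraries.

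The neighbouring genes of the Cdkn2 locus with more than a few counts differed in the direction opposite to Cdkn2a in CD45- cells. Mtap, the neighbour that encodes an enzyme of methionine salvage, gave 13686 ± 708 normalised counts in 66cl4 CD45- and 4194 ± 143 in 67NR CD45- (log2 fold change 1.74, SE 0.0789, adjusted p = 2.42e-10, edgeR). On the other side Elavl2, which encodes an RNA-binding protein, averaged 305 ± 59.8 in 66cl4 CD45- and 2.32 ± 1.56 in 67NR CD45- (6.97, SE 0.305, adjusted p = 1.64e-10). The nearest gene on that side, Dmrta1, was close to the detection limit and lower in 66cl4, like Cdkn2a, at 0 to 0.623 against 1.76 to 9.20 normalised counts in CD45- cells. Ifna1, Ifne and Zfp352 averaged under 1 in every group.

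**Figure D1:**
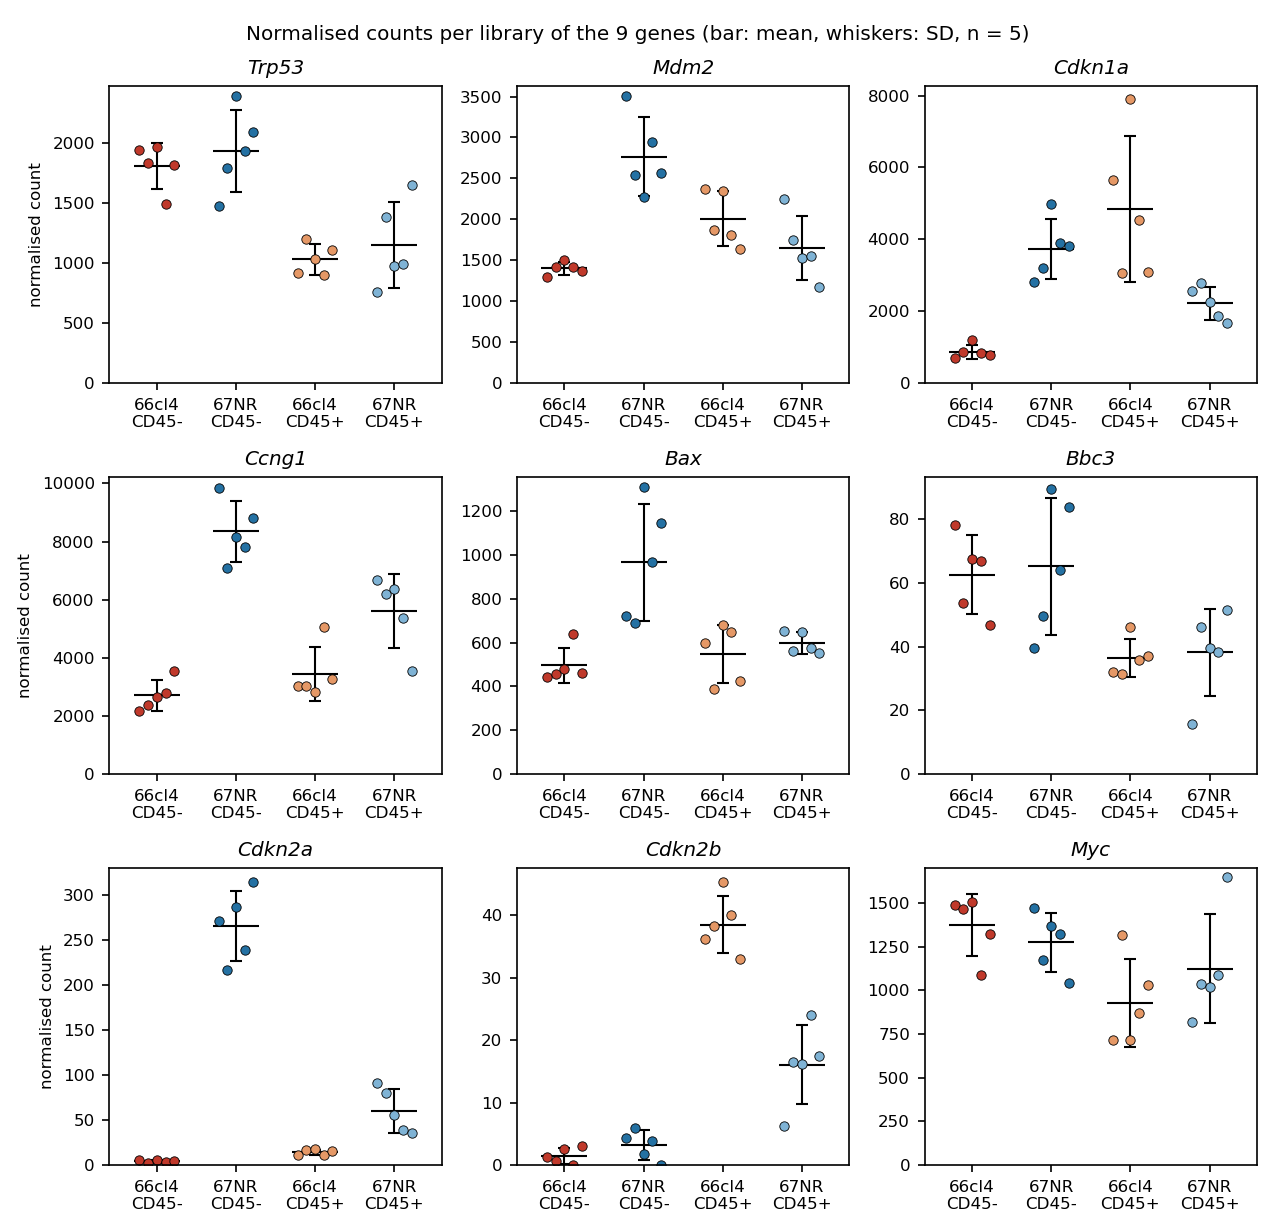
Normalised counts (vertical axes from 0, one scale per gene) of the 9 genes in each of 20 libraries, by tumour and gate, with the mean as a bar and the SD as whiskers (n = 5). Cdkn2a was highest in 67NR CD45- (216 to 314), Cdkn2b in 66cl4 CD45+ (33.0 to 45.3), and Cdkn1a was lowest in 66cl4 CD45-, where no library exceeded 1186.

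The p53 gene itself did not differ detectably between tumours. In CD45- cells Trp53 gave 1936, 1831, 1964, 1487 and 1810 normalised counts in 66cl4 and 1470, 1792, 2388, 1927 and 2088 in 67NR, overlapping ranges with a log2 fold change of -0.07 (SE 0.122, adjusted p = 0.650, edgeR). In CD45+ cells the means were 1029 ± 127 and 1149 ± 360 (SD, n = 5, log2 fold change -0.14, SE 0.183, adjusted p = 0.639). The direction of both differences changed when single libraries were left out. Trp53 was lower in CD45+ than in CD45- cells in 10 of 10 animals, by -0.84 in 66cl4 (adjusted p = 2.49e-05) and -0.75 in 67NR (adjusted p = 0.00597) on the log2 scale, short of the fold threshold of 1. Of the 31-base stretches of its transcripts, 10.1% occur in other genes, mainly the pseudogene Trp53-ps, so some of its reads may be assigned uncertainly.

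Mdm2, the p53 target that closes the feedback loop, separated the tumours in CD45- cells. It gave 1297, 1420, 1504, 1422 and 1367 normalised counts in 66cl4, and 3512, 2537, 2269, 2948 and 2562 in 67NR. Each library of 66cl4 lay below each of 67NR, with a log2 fold change of -0.95 (SE 0.110, adjusted p = 3.82e-06, edgeR), which passes the adjusted p but not the fold threshold, and -1.01 without 67NR CD45- animal 5. In CD45+ cells the tumours overlapped (2009 ± 333 and 1652 ± 393, log2 fold change 0.28, SE 0.183, adjusted p = 0.295). Between the gates Mdm2 was higher in CD45+ cells of 66cl4 (0.49, adjusted p = 0.00147) and lower in those of 67NR (-0.74, adjusted p = 0.00347), both short of the fold threshold.

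Cdkn1a, which encodes the Cdk inhibitor p21, was higher in 67NR in one gate and in 66cl4 in the other. CD45- cells gave 695, 868, 1186, 833 and 768 normalised counts in 66cl4 and 2797, 3190, 4986, 3888 and 3819 in 67NR (log2 fold change -2.07, SE 0.171, adjusted p = 1.70e-07, edgeR). CD45+ cells gave 5650, 3061, 7905, 4547 and 3078 in 66cl4 and 2555, 2775, 2245, 1859 and 1656 in 67NR. Here every library of 66cl4 was above every library of 67NR (log2 fold change 1.13, SE 0.265, adjusted p = 0.0109). That call rested on few animals: it was 0.82 when animals 5 and 6 were omitted (adjusted p = 0.0552) and 0.89 when only the CD45+ library of animal 5, the highest, was omitted (adjusted p = 0.0226, short of the fold threshold). In 66cl4 the CD45+ library was the higher in 5 of 5 animals (log2 fold change 2.44, SE 0.266, adjusted p = 4.58e-06), and in 67NR the lower in 5 of 5 (-0.75, SE 0.191, adjusted p = 0.00438, short of the fold threshold).

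Ccng1, which encodes cyclin G1, had the highest level per transcript length of the 9 genes in 67NR CD45- cells, 220 ± 21.3 TPM, a count divided by transcript length in the reference and scaled to a common total. Its normalised counts there were 9840, 7099, 8154, 7830 and 8819, against 2175, 2369, 2657, 2790 and 3538 in 66cl4 CD45-. The tumours were separate in this gate (log2 fold change -1.60, SE 0.133, adjusted p = 1.28e-07, edgeR). In CD45+ cells 66cl4 gave 3439 ± 920 and 67NR 5622 ± 1268, overlapping in range, with -0.70 (SE 0.214, adjusted p = 0.0344), past the adjusted p and short of the fold threshold. In 67NR it was lower in CD45+ than in CD45- cells (-0.57, adjusted p = 0.0143).

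The apoptosis genes split. Bax, a pore-forming BCL-2 protein, gave 443, 457, 479, 638 and 463 normalised counts in 66cl4 CD45- and 720, 690, 1309, 966 and 1145 in 67NR CD45-. The ranges were separate (log2 fold change -0.93, SE 0.178, adjusted p = 0.000430, edgeR), again past the adjusted p and short of the fold threshold, and 11.1% of the 31-base stretches of Bax transcripts occur in other genes, mainly Gm45808. In CD45+ cells the log2 difference was -0.12 (SE 0.162, adjusted p = 0.654), and within 67NR the CD45+ cells were lower by -0.69 (adjusted p = 0.00437). Bbc3, which encodes the BH3-only protein PUMA, was low everywhere (10 to 102 reads per library) and gave -0.03 in CD45- (SE 0.239, adjusted p = 0.915) and -0.05 in CD45+ cells (SE 0.287, adjusted p = 0.924), with signs that changed when single libraries were left out. It was lower in CD45+ than in CD45- cells of 66cl4 (-0.80, adjusted p = 0.00318), and in 67NR the difference of -0.76 had an adjusted p of 0.0510.

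Myc did not differ detectably between tumours either. Its normalised counts were 1492, 1467, 1505, 1090 and 1321 in 66cl4 CD45- and 1470, 1172, 1370, 1321 and 1044 in 67NR CD45- (log2 fold change 0.14, SE 0.114, adjusted p = 0.287, edgeR). In CD45+ cells they were 715, 1317, 714, 873 and 1029 against 818, 1039, 1021, 1089 and 1652 (-0.25, SE 0.203, adjusted p = 0.421). All 4 groups overlapped with their neighbours in order of level, and Myc was lower in CD45+ cells by -0.59 on the log2 scale in 66cl4 (adjusted p = 0.00919), with -0.19 in 67NR (adjusted p = 0.326). Among the nearest protein-coding genes, Fam84b was the only one with more than 1 normalised count on average in any group.

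Over the 9 genes, 8 entered the test of CD45- cells, and 3 were called lower in 66cl4 (Cdkn2a, Cdkn1a and Ccng1) and 0 higher, where called means an adjusted p under 0.05 and a log2 fold change past 1 in edgeR. DESeq2 also gave 3 lower and 0 higher. At an unadjusted p under 0.05 edgeR gave 5 lower and 0 higher of the 8, beside 10361 of all 14844 genes in either direction. Of all 14844 genes tested there, 18.9% were called lower and 13.2% higher. The median log2 fold change was -0.94 over the 8 genes and -0.01 over all genes. In CD45+ cells 3 of 9 were called, Cdkn1a and Cdkn2b higher and Cdkn2a lower, where 5.01% of genes were called higher and 6.82% lower. Between gates, 3 of 9 were called higher in CD45+ cells of 66cl4 (Cdkn2b, Cdkn1a and Cdkn2a) and 0 lower by edgeR and by DESeq2, beside 23.9% and 20.5% of all genes. At an unadjusted p under 0.05, 4 were higher and 3 lower there, beside 11184 of 14916 genes in either direction. In 67NR 1 of 8 was called, Cdkn2a, lower in CD45+ cells, beside 19.6% lower and 20.2% higher over all genes. With 8 or 9 genes the shares rest on single genes.

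**Figure D2:**
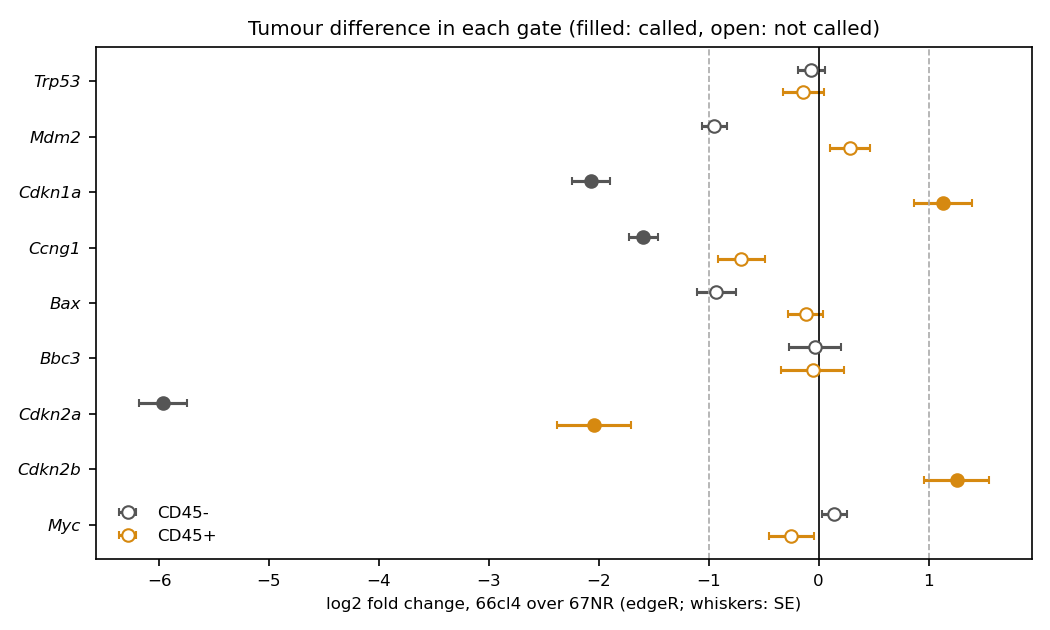
Log2 fold change of 66cl4 over 67NR (horizontal axis, edgeR, whiskers SE) for each gene in CD45- and CD45+ cells, filled where called, with dashed lines at the fold threshold of 1. Cdkn2a lay at -5.97 and -2.04, Cdkn1a at -2.07 and 1.13, and Trp53, Bbc3 and Myc within 0.25 of 0 in both gates. Cdkn2b has no CD45- point, since it was filtered.

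Whether the tumour difference of a gene differed between the gates was tested over all 20 libraries, as the difference in CD45+ minus that in CD45- cells. It passed an adjusted p of 0.05 for 6 of the 9 genes, beside 43.1% of 16453 genes tested. The log2 values were 3.94 for Cdkn2a (SE 0.405, adjusted p = 2.17e-07), 3.21 for Cdkn1a (SE 0.335, adjusted p = 3.03e-07), 2.35 for Cdkn2b (SE 0.760, adjusted p = 0.0178) and 1.25 for Mdm2 (SE 0.207, adjusted p = 7.62e-05). Ccng1 gave 0.91 (SE 0.256, adjusted p = 0.00750) and Bax 0.82 (SE 0.251, adjusted p = 0.0126). All 6 were positive, beside 3604 positive and 3492 negative among all genes that passed. Cdkn2b, with only 0 to 8 reads per CD45- library, gave 2.34 with the animal as a block (adjusted p = 0.0551). Omitting animals 5 and 6, or the CD45- library of 66cl4 animal 4 or 67NR animal 4, also left Cdkn2b over 0.05 (adjusted p = 0.0681, 0.0528 and 0.0640). Bax was lost with the CD45+ library of 66cl4 animal 5 or the CD45- library of 67NR animal 7 omitted (adjusted p = 0.0552 and 0.0516). Omitting the CD45+ library of 66cl4 animal 4 brought Myc under 0.05 (-0.64, adjusted p = 0.0312). Trp53, Bbc3 and Myc gave -0.07, -0.03 and -0.39 (adjusted p = 0.831, 0.964 and 0.228).

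Sums of sorted cells do not tell fewer expressing cells from less RNA per cell, which holds for each value here. In the CD45- libraries other cells moved along with the tumours: the 8 leukocyte markers had sums of 469 to 2292 in 66cl4, against 1865 to 4045 for 67NR, in normalised counts. Of the 8, 5 were called lower in 66cl4, a count that fell to 1 when 66cl4 CD45- animal 6 was omitted, to 1 with the replicate number as a block (numbers 4 to 7 alone), to 2 for 66cl4 animal 4 or 67NR animal 1, 4 or 6, and to 3 for 66cl4 animal 3 or 67NR animal 7. These sums were 0.580% and 1.72% of the CD45+ sums. The 10 neutrophil markers summed to 153 to 514 in 66cl4 CD45- and to 669 to 978 in 67NR CD45-. In 66cl4 CD45- 4 of them averaged at least 20, led by the chemokine receptor gene Cxcr2 at 125 ± 16.3, while Camp and Ngp were at 0 in all 5 libraries. Endothelial markers were called lower in 66cl4 CD45- for 5 of 6 and fibroblast markers for 5 of 9, with 1 fibroblast marker higher (3 fibroblast markers lower with animals 5 and 6 omitted). In CD45+ cells 5 of 9 tested neutrophil markers were called higher in 66cl4, with summed levels of 44355 to 125374 against 7225 to 52470 in 67NR. That count was 2 when animals 5 and 6, or one CD45+ library of 66cl4 animal 3 or 5 or of 67NR animal 4, 5 or 6, were omitted. Macrophage markers there summed to 52057 to 79423 in 66cl4 and 81197 to 122621 in 67NR, and lymphocyte markers to 2103 to 17896 and 2497 to 15113. Their part in the differences of Cdkn1a, Cdkn2a, Cdkn2b, Mdm2, Ccng1 and Bax was not tested.

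**Figure D3:**
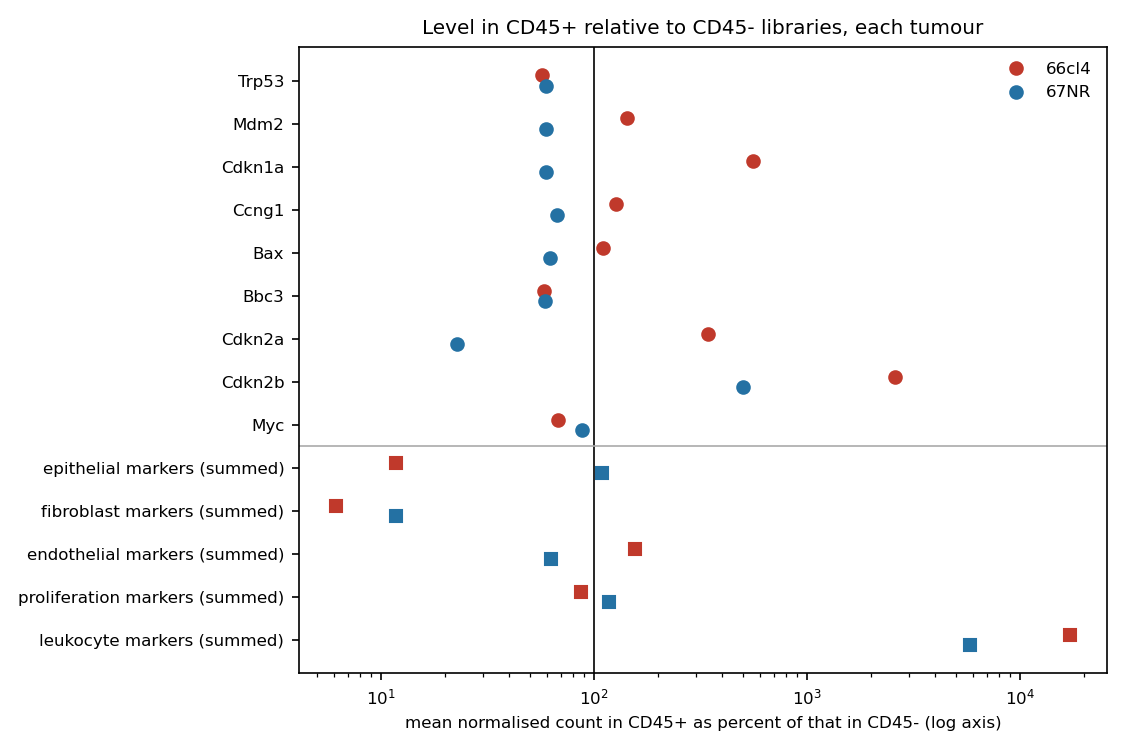
Mean level in CD45+ libraries as a percent of that in CD45- libraries of the same tumour (log axis, 66cl4 red and 67NR blue) for the 9 genes (circles) and for summed marker lists (squares). Cdkn2a lay at 344% in 66cl4 and 22.6% in 67NR, on opposite sides of 100%, as did Cdkn1a (557% and 59.4%), while Trp53 and Bbc3 lay between 57.0% and 59.5% in both tumours.

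Other targets of p53 were counted from a list that held none of the 9. Among 15 targets of cell cycle arrest and feedback tested in CD45- cells, 8 were called lower in 66cl4 (Gdf15, Phlda3, Pmm1, Psrc1, Ptprv, Sesn2, Trp53inp1 and Zmat3), 2 higher (Sesn1 and Tigar) and 5 not, with a median log2 fold change of -1.45, where 18.9% of all genes were lower and 13.2% higher. Those shares are the background for each count of called genes in CD45- cells that follows, and 6.82% lower and 5.01% higher for each in CD45+ cells. For counts at an unadjusted p under 0.05 in CD45+ cells the background is 5110 of 14676 genes, in either direction. Gdf15, which encodes a stress-induced cytokine, was at 0 to 2.49 normalised counts in 66cl4 CD45- and 64.5 to 178 in 67NR CD45-. Pmm1, a phosphomannomutase gene, averaged 34.4 ± 3.72 and 294 ± 52.1 (log2 fold change -3.06, SE 0.157, adjusted p = 8.20e-10, edgeR). In CD45+ cells the same list gave 4 lower, 1 higher and a median of -0.14. With the replicate number as a block it gave 2 lower and 2 higher, and the higher count was also 2 when fitted on all 20 libraries together, when DESeq2 was used, and when 67NR CD45+ animal 1 was omitted. Among called genes of the list with separate libraries and at least 100 normalised counts in the higher group, Phlda3 differed most in CD45+ cells. Phlda3, which encodes an inhibitor of Akt signalling, averaged 15.2 ± 3.94 against 132 ± 63.7 (-3.13, adjusted p = 0.000336, edgeR). Between the gates of 66cl4, 5 of 14 were higher in CD45+ cells and 2 lower, and in 67NR 3 were higher and 6 lower of 15. By the same rule the largest difference in 66cl4 was that of the antiproliferative gene Btg2 (3.13, SE 0.253, adjusted p = 2.51e-07, edgeR). Over all genes 23.9% and 20.5% were higher and lower between the gates of 66cl4, and 20.2% and 19.6% between those of 67NR.

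Targets of apoptosis gave a mixed count. Of 9 tested in CD45- cells, 3 were lower in 66cl4 (Aen, Eda2r and Pidd1) and 2 higher (Fas and Tnfrsf10b), with a median of -0.56. Eda2r, a death receptor relative that binds ectodysplasin A2, averaged 172 ± 37.9 in 66cl4 and 1517 ± 188 in 67NR (log2 fold change -3.11, SE 0.141, adjusted p = 2.45e-10, edgeR), and in CD45+ cells 14.8 ± 5.29 and 332 ± 229 (-4.45, adjusted p = 0.000873). Fas, the classical death receptor, was called higher in 66cl4 CD45+ cells (1.12, SE 0.158, adjusted p = 0.000643), the only apoptosis target of 10 that was, and it was not called with animals 5 and 6 omitted. Pmaip1, which encodes the BH3-only protein NOXA, averaged 1269 ± 334 in CD45+ and 5.35 ± 4.46 in CD45- cells of 66cl4. Of 4 DNA repair targets, Ddb2, a damage-recognition gene, was higher in 66cl4 CD45- (1.16, SE 0.133, adjusted p = 3.09e-06) while the other 3 were not called. In CD45+ cells 0 of the 4 were called by edgeR or DESeq2, and 0 had an unadjusted p under 0.05.

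Upstream of p53, most genes were not called. Among 13 family members and regulators tested in CD45- cells, Trp63, the p53 relative of basal epithelium, was higher in 66cl4 (415 ± 39.8 against 8.84 ± 4.36 normalised counts, log2 fold change 5.53, SE 0.226, adjusted p = 8.70e-11, edgeR). Rchy1 and Sirt1 were lower, and 10 were not called. In CD45+ cells 0 of 12 were called by edgeR and 1, higher, by DESeq2, and 3 had an unadjusted p under 0.05. EdgeR also called 1 with the replicate number as a block, and when the CD45+ library of 66cl4 animal 3, or of any single 67NR animal, was omitted. Of the BCL-2 family, 1 of 10 was called in CD45- cells (Bok, higher). A further gene was called lower there by DESeq2, and by edgeR with the replicate number as a block or when the CD45- library of 66cl4 animal 3 or 5 or of 67NR animal 1 or 4 was omitted. In CD45+ cells 0 of 9 were called by either tool, 5 had an unadjusted p under 0.05, and 1 was called higher when the CD45+ library of 66cl4 animal 4, 6 or 7 was omitted. The medians of the BCL-2 family were -0.05 and 0.28.

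**Figure D4:**
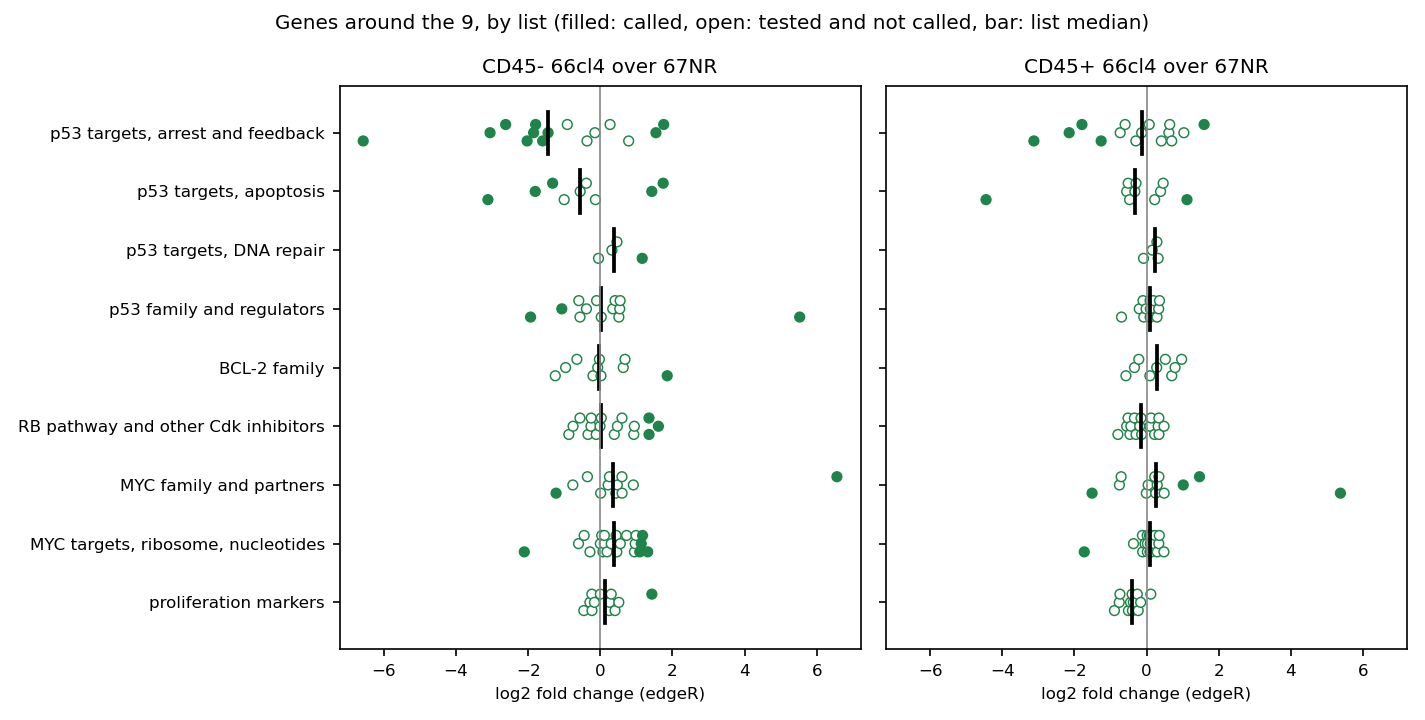
Log2 fold change of 66cl4 over 67NR (horizontal axis, edgeR) for each tested gene of 9 lists around the 9 genes, in CD45- (left) and CD45+ cells (right), filled where called, with the list median as a bar. The p53 targets of arrest and feedback had a median of -1.45 in CD45- and -0.14 in CD45+ cells. Of 9 apoptosis targets in CD45- cells, 3 lower and 2 higher ones were filled, with a median of -0.56. In each of the remaining lists most genes were open points, short of at least 1 of the thresholds.

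On the Cdkn2 side, Cdkn2c, Ccnd2 and Rb1 were the 3 genes called of 17 tested in CD45- cells, all higher in 66cl4, a share near the 13.2% of all genes. Ccnd2, a D-type cyclin gene, averaged 1515 ± 192 and 507 ± 43.7 (log2 fold change 1.61, SE 0.101, adjusted p = 6.31e-09, edgeR), and Rb1, whose protein is held active by the Cdkn2 inhibitors, 3480 ± 600 and 1393 ± 387 (1.35, SE 0.169, adjusted p = 1.02e-05). Cdkn2c, which encodes the related inhibitor p18, was thus called in the direction opposite to Cdkn2a. In CD45+ cells 0 of 17 were called between tumours by edgeR or DESeq2, and 7 had an unadjusted p under 0.05.

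Of the partners of Myc, 1 of 12 was called higher (2 when 67NR CD45- animal 5 was omitted) and 1 lower in CD45- cells. Mycn, a Myc paralog, averaged 120 ± 31.1 normalised counts in 66cl4 and 1.20 ± 1.34 in 67NR, and Mxi1, an antagonist that competes for Max, 399 ± 34.2 and 953 ± 158 (log2 fold change -1.23, SE 0.115, adjusted p = 4.24e-07, edgeR). In CD45+ cells 3 of 13 were higher (Mlxipl, Mxd1 and Mxi1) and 1 lower (Mxd3), so Mxi1 was called in opposite directions in the gates. Of 22 Myc targets of ribosome and nucleotide synthesis, 4 were higher in 66cl4 CD45- (Nolc1, Nop16, Npm1 and Ppan) and 1 lower, with a median of 0.37, and the share of higher genes was again near the 13.2% of all genes. The lower one was Odc1, the rate-limiting enzyme gene of polyamine synthesis, at 3218 ± 526 against 14178 ± 1495 (-2.11, SE 0.124, adjusted p = 3.45e-09). It was also the only one called in CD45+ cells (-1.73, SE 0.267, adjusted p = 0.00110). Proliferation markers, 12 in all, gave 1 higher in CD45- (Birc5). In CD45+ cells 0 were called between tumours by edgeR or DESeq2, 5 were lower at an unadjusted p under 0.05, and 1 was called lower by edgeR with animals 5 and 6, or the CD45+ library of 66cl4 animal 7 or 67NR animal 1, omitted.

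The genes whose levels followed each of the 9 most closely over the 20 libraries were ranked by the root mean square difference of centred log2 values among 16414 genes. Cdkn1a lay nearest to Sesn2 (0.316), and Ccng1 to Pqlc3 (0.226) and Casp1 (0.230). Cdkn2a lay nearest to Magi2 (0.341), and Cdkn2b to Pdgfb (0.534) and Ppp1r13b (0.617), the loosest matches of the 9. For Trp53, Mdm2, Bax, Bbc3 and Myc the nearest were Med25 (0.160), Pnpla8 (0.150), Nme2 (0.164), Acot7 (0.225) and Xndc1 (0.191). These are descriptions over libraries of 4 groups, and genes with the same group means rank together.

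Compared per transcript length, the 9 genes spanned a wide range of levels. In 66cl4 CD45- cells the highest was Mdm2 at 88.4 ± 6.22 TPM and the lowest Cdkn2b at 0.0636 ± 0.0540, with Cdkn2a at 0.278 ± 0.101. In 67NR CD45- cells Cdkn2a stood at 17.2 ± 2.02 TPM, above Bbc3 at 5.43 ± 1.65 and below Myc at 40.5 ± 4.52. Cdkn1a was the highest of the 9 in 66cl4 CD45+ cells at 223 ± 85.1 TPM, where its 5 libraries ran from 156 to 351.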

How the data were processed

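RNA of sorted cells was sequenced as single reads after SENSE mRNA-Seq library preparation. The authors trimmed reads with fastp, estimated transcript counts with Salmon 1.3.0 and summed them to genes with tximport; the deposited values are estimated counts, not normalised. The transcriptome they name is GRCh38, although the identifiers are mouse, and the mouse release is not given in the sources used here. The estimated counts were rounded to whole numbers. Levels are counts divided by DESeq2 (1.42.0) size factors over 20 libraries, called normalised counts. TPM used median transcript lengths of the reference. Genes were tested with edgeR 4.0.16 (R 4.3.3): TMM, filterByExpr with a minimum count of 10, quasi-likelihood test, Benjamini-Hochberg adjustment over all tested genes, each comparison fitted on its own groups and the interaction on all. Called means past both thresholds of the study, 0.05 for the adjusted p and 1 for the size of the log2 fold change; for the interaction the adjusted p alone. Exact two-sided permutation tests over 252 splits were used for single genes. They took libraries as unpaired, also between the gates of one tumour, where both libraries of an animal enter. Statistics were tested on simulated data first. CD45+ and CD45- libraries with one number come from one animal; their deviations from the group means correlated between 0.0258 and 0.147 in 66cl4 and between -0.00283 and 0.325 in 67NR. Replicates are separate animals. Intervals cover counting error only, and reads are not independent molecules.

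The 9 genes and the lists of p53 targets (cell cycle arrest and feedback, apoptosis, DNA repair), p53 family and regulators, BCL-2 family, RB pathway, MYC partners, MYC targets, proliferation, leukocyte, neutrophil, macrophage, lymphocyte, epithelial, fibroblast and endothelial markers were chosen with earlier results of these data known. From each list of function, named examples were the 2 called genes of largest fold change whose libraries do not overlap and whose higher group averages at least 100 normalised counts; other called genes are named without values or were singled out after their values were seen. Neighbours were the 3 nearest protein-coding genes on each side in the RefSeq gene table, and the 3 most alike genes were ranked per gene. Alternatives were DESeq2, RLE size factors, no filter on low counts, no fold threshold, all libraries in one fit, an animal block, CPM and TPM levels, omission of 66cl4 animals 5 and 6 together, and of each library in turn. Between tumours the block was the replicate number, and animals whose number the other tumour lacks, 66cl4 animal 3 and 67NR animal 1, were left out.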

Additional observations from a re-analysis of the deposited data

Results flagged for a closer look

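In groups of 5 libraries, 3 values stood apart from the other 4 by Dixon's criterion, of 40 groups examined, where chance gives about 2. Bax in 66cl4 CD45- animal 6 gave 638 normalised counts, above 443 to 479 in the others. Ccng1 in 66cl4 CD45+ animal 6 gave 5061, above 2817 to 3258. The total count of 67NR CD45- animal 7 was 16917109, below 21199064 to 22180348.

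The tumour difference differed between the gates for 6 genes by the interaction test of edgeR (adjusted p under 0.05). The log2 values, CD45+ minus CD45-, were 3.94 for Cdkn2a, 3.21 for Cdkn1a, 2.35 for Cdkn2b, 1.25 for Mdm2, 0.91 for Ccng1 and 0.82 for Bax. Their CD45- differences were -5.97, -2.07, not fitted, -0.95, -1.60 and -0.93, and their CD45+ differences -2.04, 1.13, 1.26, 0.28, -0.70 and -0.12. Of these, Cdkn1a alone was called in opposite directions in the gates. The interactions of Cdkn2b and Bax did not pass in every alternative, and Cdkn2b held only 0 to 8 reads per CD45- library.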

How the results depend on the processing

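Most results held: over all alternatives 749 of 795 fitted values of the 9 genes kept their direction and their side of the threshold. The number of genes called moved by more than 1.5 times without the fold threshold, to 5 of 8 in CD45- cells, 7 of 9 between the gates of 66cl4 and 6 of 8 between those of 67NR, and to 1 in CD45+ cells without animals 5 and 6. Between the gates of 67NR it was 2 with DESeq2, with no filter and with all 20 libraries in the fit, and 1 to 2 when single libraries were left out, in each case because Cdkn2b entered the test. Over all genes the calls without the fold threshold were 9999, 3259, 10892 and 10143 against 4774, 1736, 6621 and 5992. Bax in CD45- cells reached the call without 66cl4 animal 6 (-1.02), animals 5 and 6 (-1.03), 67NR animal 1 (-1.01) or animal 4 (-1.03). Cdkn2b in CD45+ cells gave 1.08 (adjusted p = 0.0728, edgeR) with the replicate number as a block. The tumours share only numbers 4 to 7, so this fit also left out 66cl4 animal 3 and 67NR animal 1. Effects of the block and of that omission were not separated. Libraries with a shared number did not deviate together (correlations -0.146 to 0.0790), and this fit changed no other call of the 9 genes in the tumour comparisons. Of the list counts, it moved leukocyte, neutrophil, macrophage and lymphocyte markers lower in CD45- cells from 5, 2, 4 and 1 to 1, 1, 0 and 0, and BCL-2 genes lower there from 0 to 1. In CD45+ cells it moved fibroblast markers lower from 4 to 2, p53 regulators higher from 0 to 1, and p53 targets of arrest from 4 lower and 1 higher to 2 and 2. Without animals 5 and 6, neutrophil and macrophage markers lower in CD45- cells moved from 2 and 4 to 5 and 8. Fibroblast markers lower in CD45+ cells then moved from 4 to 2, and macrophage markers lower there from 1 to 2. Among the gate comparisons the animal block changed no call of the 9 genes, and in the interaction that of Cdkn2b alone (2.34, adjusted p = 0.0551); its interaction was also lost without the CD45- library of 66cl4 animal 4 (2.00, adjusted p = 0.0528) or of 67NR animal 4 (1.92, adjusted p = 0.0640), and that of Bax without the CD45- library of 67NR animal 7 (0.66, adjusted p = 0.0516). The interaction of Myc passed without the CD45+ library of 66cl4 animal 4 (-0.64, adjusted p = 0.0312). Signs near 0 reversed: for Bbc3 in CD45- cells with no filter (0.000160) and as a ratio of CPM (1.01), for Trp53 in the interaction without animals 5 and 6 (0.00790), and for Bbc3 there with the replicate block (0.0157). Without single libraries Trp53 ranged from -0.14 to 0.022 in CD45- and -0.27 to 0.00094 in CD45+ cells and -0.23 to 0.089 in the interaction, and Bbc3 from -0.16 to 0.11, -0.26 to 0.052 and -0.24 to 0.10. As ratios of mean levels the ranges were 0.87 to 1.06 for Bbc3 in CD45- cells, 0.82 to 1.004 for Trp53 and 0.83 to 1.05 for Bbc3 in CD45+ cells. Without animals 5 and 6 the exact test between the gates of 66cl4 cannot go below 0.1. The cause of these changes was not tested beyond the entry of Cdkn2b. Depth limits Cdkn2a in 66cl4 CD45- cells and Cdkn2b in all CD45- cells.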
